A study of Drosophila melanogaster with 33 samples.

Results

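Wide domains of Ser2P, the mark of elongating RNA polymerase II, were examined in S2-AbdA cells of Drosophila melanogaster. The domains are the peaks of polymerase phosphorylated at serine 2 (Ser2P) in these cells that span 3000 bp or more. Peaks on chromosomes M, U, Uextra and those ending in Het were left out, which leaves the 5 long arms and chromosome 4, together called the arms below. The rule kept 919 of the 3629 Ser2P peaks on the arms. The domains were thus selected on the measured width of their own peaks, so their widths are given as a description only. Rpb3, a subunit of the polymerase, was called in neither line on 253 of them, so for these the name rests on the Ser2P list alone, and they are called Ser2P domains throughout.

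The study mapped chromatin proteins by ChIP-seq in S2-DRSC, a line derived from late fly embryos, and in the same line stably transfected with HA::AbdA, the Hox protein Abdominal-A with an HA tag. The wild-type cells (S2) and the transfected cells (S2-AbdA) were both given 10 µM copper sulphate for 24 h, so the copper is shared by the controls. The labels do not say which promoter drives the transgene or whether the line is 1 clone. Each antibody with a list was used on 2 samples of a line, but the labels name 1 peak list for both, so no spread between replicates could be computed and no test was made. All differences below are between single lists, and the labels do not say whether the paired samples came from separate cultures. The number of reads behind each list is unknown. Intervals are exact Clopper-Pearson 95% intervals over domains, which cover counting error only, since domains of 1 list are not replicates of a condition. For positions inside domains they are over peak centres. The labelled cell line could not be checked against marker genes, because no annotation of the files' genome build (dm3) was used here.

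RNA polymerase II that has left the promoter is phosphorylated at serine 2 of the repeats in its largest subunit, and this mark builds up over the body and towards the end of transcribed genes. Rpb3 is a core subunit present in every form of the polymerase, and in flies it is often concentrated near promoters, where the enzyme pauses. M1BP and GAF (GAGA factor) are sequence-specific proteins of fly promoters, each found at many genes with paused polymerase. dRing is the ubiquitin ligase of Polycomb repressive complex 1, and E(z) is the histone H3 lysine 27 methyltransferase of Polycomb repressive complex 2. AbdA is a homeodomain transcription factor that patterns the abdomen.

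The 919 domains made up 25.3% of the Ser2P peaks on the arms but 64.6% of the length under them, 5.23 Mb in all. Their widths ran from 3002 to 23565 bp with a median of 5009 bp. In all, 461 domains spanned at least 5000 bp and 48 at least 10000 bp. The deposited score of a peak, the authors' own value of unstated unit, was used only within a list. It had a median of 6.23 over the domains and 5.15 over all Ser2P peaks on the arms. The narrowest domains were 3002, 3009 and 3011 bp wide and lay on 3R, X and 3L. The widest peaks that the rule left out were 2996, 2989 and 2987 bp wide, on 2R, 3R and 2L. All 3 domains just inside the limit overlapped an HA-AbdA peak and a Rpb3 peak of both lines. Of the 3 peaks just outside, all overlapped Rpb3 peaks of both lines and 1 overlapped an HA-AbdA peak.

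The domains were spread over every arm. 3R held 200, X 184, 2L 182, 2R 173 and 3L 163, which is 6.64 to 8.21 domains per Mb of arm. Chromosome 4 held 17, or 12.9 per Mb, and there 42.5% of the Ser2P peaks were wide, against 23.5 to 28.3% on the other arms. Of the 17 domains on chromosome 4, 12 had no Ser2P peak in S2 cells and 2 overlapped an HA-AbdA peak. The median gap between neighbouring domains was 65525 bp, and 655 domains had no other within 10000 bp. The remaining ones formed 116 runs. The run with most domains lay on 2L from 21451019 to 21545105 and held 10 domains in 94.1 kb. In S2 cells a single Ser2P peak 77254 bp wide, from 21466340 to 21543593, overlapped 7 of these 10.

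Ser2P in S2 cells split the domains into contrasting groups. The Ser2P lists differ in length, with 1670 peaks on the arms in S2 and 3629 in S2-AbdA cells. They cover 2.61% and 6.73% of the arms. The part of this difference in the groups below was not tested. An S2 Ser2P peak overlapped 563 domains, or 61.3% (58.0 to 64.4%), against 42.8% of all Ser2P peaks of S2-AbdA cells on the arms. The other 356 domains (38.7%) held no Ser2P peak of S2 cells. S2 peaks covered under 50% of the length of 227 domains, 50% to under 90% of 111, and 90% or more of 225. Over all domains the median covered share was 23.2%. The ends of this scale were the fullest: between 10 and 90%, each step of 10 points held 24 to 63 domains. From this distribution, and after seeing it, the domains were divided into 3 classes. They are called unmarked (no S2 Ser2P peak, 356), part-marked (some, but under 90% of the length, 338) and shared (90% or more, 225), names that refer only to the Ser2P list of S2 cells. The same classes made up 57.2%, 28.1% and 14.7% of all Ser2P peaks on the arms.

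**Figure D1:**
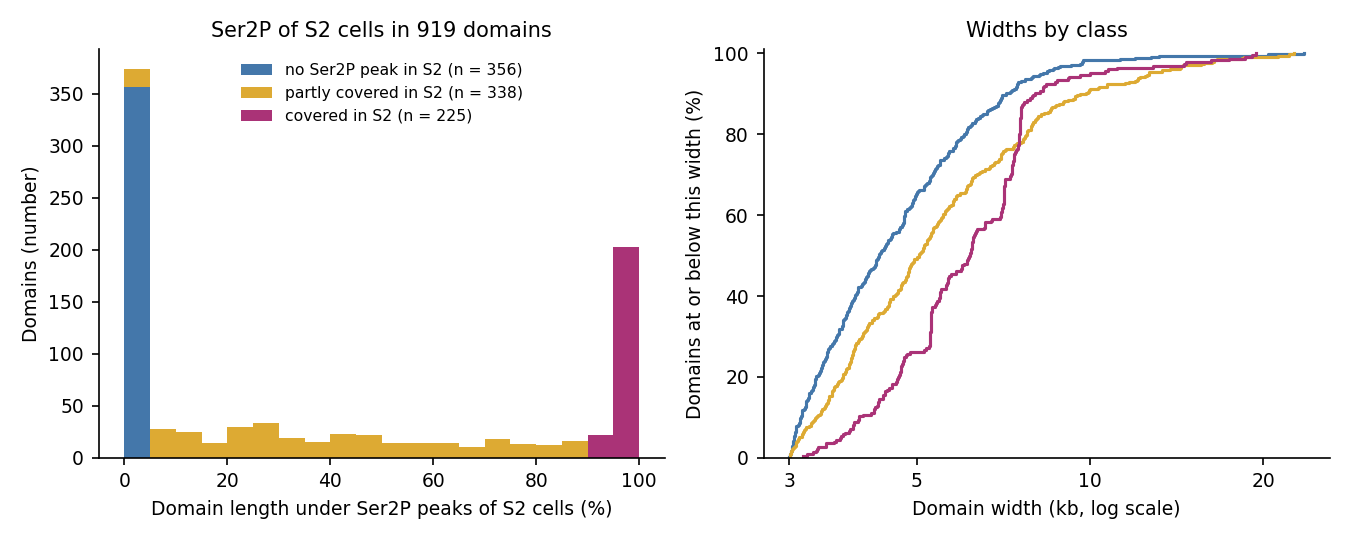
Left, number of domains by the share of their length under Ser2P peaks of S2 cells, in steps of 5 points, coloured by class (none: unmarked; partly: part-marked; covered: shared). Right, the percentage of each class at or below a given width (log axis in kb). The 356 unmarked and 225 shared domains stand at the ends of the scale, and the median widths are 4294, 5043.5 and 6197 bp for unmarked, part-marked and shared domains.

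Unmarked domains were the narrowest and scored lowest. Their median width was 4294 bp, against 5043.5 bp for part-marked and 6197 bp for shared domains. Their median score was 3.90, against 7.09 and 19.0 in the same list. The score of every class spread widely, from 1.76 to 55.8 in unmarked, from 2.59 to 219 in part-marked and from 3.13 to 237 in shared domains, so the ranges overlapped. The share of domains with an S2 Ser2P peak was 44.9% among the 272 domains of 3000 to under 4000 bp and 87.5% among the 48 of 10000 bp or more. A wider region meets more peaks of any list, so these shares also carry width itself.

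The limits of the classes by themselves make the S2 stretch shorter in part-marked domains and bring the borders close in shared ones, so the following describes the classes. A single S2 peak lay on 272 of the 338 part-marked domains, and 66 held several. S2 peaks reached both ends of 5 domains, 1 end of 58 and neither end of 275. Where there was a single S2 peak, its median width was 1567 bp, against the domains' 5043.5 bp. In the shared class a single S2 peak lay on 224 of the 225, and both its ends were within 250 bp of the domain's ends in 166 (73.8%). Where there was a single S2 peak, the median difference between matching ends was 28 bp. In the other direction, S2 cells had 327 Ser2P peaks of 3000 bp or more on the arms, and 306 of them (93.6%) overlapped a domain of S2-AbdA cells. A further 16 overlapped only narrower Ser2P peaks of S2-AbdA cells, and 5 overlapped none.

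Shared domains had widths that recurred. Of the 225, 22 were between 7500 and 7599 bp wide, on 4 arms, 18 were between 5200 and 5299 bp, on 5 arms, and 14 were between 7000 and 7099 bp, on 5 arms. None of the domains in these 3 groups overlapped a Rpb3 peak of S2-AbdA cells. The median share of their length under E(z) peaks of S2 cells was 93.5%, 76.9% and 71.6% in the same order. The fullest 100-bp step of the unmarked domains, 3000 to 3099 bp, held 28 of 356 at the lower limit of width, and 21 of them overlapped a Rpb3 peak of S2-AbdA cells. What sequence these domains hold was not analysed here.

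Single domains, named as extremes, show the range of forms and do not stand for their classes. The widest domain, on 3R from 26592756 to 26616320 (23565 bp), had no Ser2P peak in S2 cells. Rpb3 peaks covered 89.4% of it in S2 cells and covered 84.3% in S2-AbdA cells, and it overlapped 6 HA-AbdA peaks. GAF overlapped it with 5 peaks in S2 and 4 in S2-AbdA cells, and dRing with 2 and 9. Another unmarked domain, on 3L from 22337044 to 22357469 (20426 bp), was long under Rpb3 too (65.2% in S2, 50.4% in S2-AbdA) and overlapped 1 HA-AbdA peak but no M1BP, dRing or E(z) peak. The other widest unmarked domains were 4 915356 to 928552, 2L 3056488 to 3069246 and 2R 4783842 to 4795842, with 0, 1 and 4 HA-AbdA peaks.

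The domain with most HA-AbdA peak centres, 9, was a part-marked one on 3R from 4636209 to 4654752. HA-AbdA peaks covered 67.5% of it, a single S2 Ser2P peak covered 56.1%, and 14 Rpb3 peaks overlapped it in each line. The next by HA-AbdA were 2L 7089208 to 7098924, an unmarked domain with 6 centres and 70.6% under HA-AbdA peaks, and the widest domain, with 5. Part-marked domains at 2R 8052951 to 8067376 and 2L 2745860 to 2759646 also held 5 centres each, with 61.1% and 59.7% of their length under HA-AbdA peaks.

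The widest domains without HA-AbdA looked unlike these. The first, 3R 8297833 to 8319105 (21273 bp), held no Rpb3 peak of either line, 3 Ser2P peaks of S2 cells over 64.7% of its length, 5 GAF peaks in S2 and none in S2-AbdA cells, and 6 E(z) peaks in each line. The next 3 all lay in the run on 2L described above, at 21501552 to 21520984, 21481397 to 21500512 and 21526495 to 21545105. They were shared domains with no Rpb3 peak of either line, and E(z) peaks of S2-AbdA cells covered 77.1%, 80.6% and 73.4% of them. The fifth, on X from 21558334 to 21575753, was a shared domain with 10 M1BP peaks in S2 and 12 in S2-AbdA cells. E(z) covered 82.9% of it in S2 and 82.1% in S2-AbdA cells, dRing covered 71.0% and 72.8%, and Rpb3 and HA-AbdA were not called in it.

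Other domains named by width or score varied in form. Among the 10 widest were the part-marked domains X 1354905 to 1377560, 3R 24344639 to 24366802 and 3L 16600671 to 16619077. S2 Ser2P peaks covered 27.3%, 43.0% and 59.2% of them, and they overlapped 3, 1 and 3 HA-AbdA peaks. The 5 highest scores, 126 to 237, belonged to 3R 8327631 to 8338789, 3R 7783914 to 7787934, 3L 3192982 to 3199554, 3R 8290291 to 8296869 and 2R 2234376 to 2239183. S2 Ser2P peaks covered 78.9 to 99.9% of their lengths, and 2 of the 5 overlapped an HA-AbdA peak. All but 3R 7783914 to 7787934 were shared domains, yet all 5 overlapped Rpb3 peaks of both lines. Rpb3 peaks of S2-AbdA cells covered 100% of 3L 3192982 to 3199554 and 6.97 to 21.1% of the others. HA-AbdA peaks covered 69.6% of that 3L domain.

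**Figure D2:**
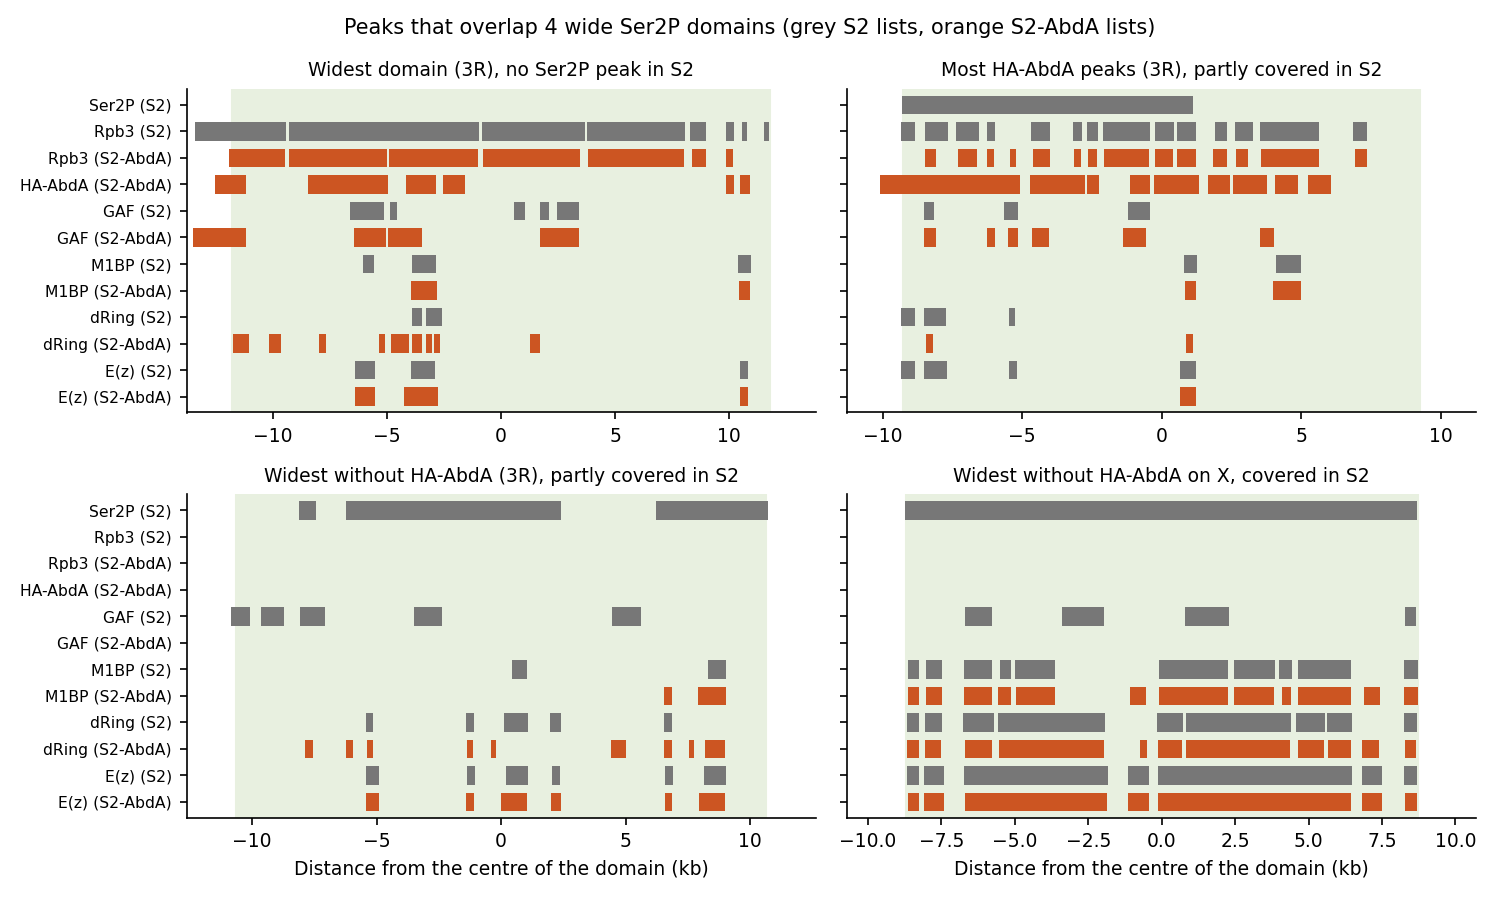
Peaks of each list on 4 domains, by distance in kb from the centre of the domain (shaded, the Ser2P peak of S2-AbdA cells); grey bars are lists of S2 cells and orange bars lists of S2-AbdA cells. Both domains in the upper row hold runs of Rpb3 and HA-AbdA peaks, while the lower row has neither and holds E(z), dRing and M1BP peaks of both lines.

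Polymerase itself, read by Rpb3, was called on most unmarked and part-marked domains in both lines and on few shared ones. A Rpb3 peak overlapped 638 domains in S2 cells, or 69.4% (66.3 to 72.4%), against 68.0% of all Ser2P peaks on the arms. In S2-AbdA cells it was 627, or 68.2% (65.1 to 71.2%), against 63.9%. These totals were near the background, and the classes within them were far apart. In S2-AbdA cells Rpb3 overlapped 78.9% of unmarked, 92.0% of part-marked and 15.6% of shared domains, and in S2 cells 81.5%, 91.4% and 17.3%. Thus 290 of the 356 unmarked domains, which had no Ser2P peak in S2 cells, overlapped a Rpb3 peak in those same cells. Rpb3 peaks of S2 cells covered 36.8% of the length of unmarked domains, near the 39.0% of the length of all Ser2P peaks on the arms (6.52% of the arms themselves).

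Rpb3 was called in both lines on 599 domains (65.2%, against 58.7% of all Ser2P peaks on the arms), in S2-AbdA cells only on 28 (3.05%, against 5.21%) and in S2 cells only on 39 (4.24%, against 9.26%). So few domains differed between the lines in whether Rpb3 was called at all.

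Neither line had a Rpb3 peak on 253 domains (27.5%, against 26.8% of all Ser2P peaks on the arms). Of these, 185 were shared, 51 unmarked and 17 part-marked. Rpb3 was called in neither line and E(z) in both on 194 domains (21.1%, against 8.98%), of which 183 were shared. With dRing in both lines as well, 173 domains remained (18.8%, against 6.53%), 164 of them shared. The change in Rpb3 along the scale of S2 coverage was abrupt. A Rpb3 peak of S2-AbdA cells overlapped 24 of the 28 domains covered to 80 to under 90%, and 35 of the 225 covered to 90% or more. E(z) of S2-AbdA cells had no such break, with 25 of the same 28 and 212 of the 225.

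HA-AbdA was found on most unmarked and most part-marked domains. The HA control of S2 cells, which lack the tag, was not analysed here. An HA-AbdA peak of S2-AbdA cells overlapped 576 of the 919 domains, or 62.7% (59.5 to 65.8%), against 58.3% of all Ser2P peaks on the arms. By class these were 234 unmarked (65.7%, 60.5 to 70.7%), 299 part-marked (88.5%, 84.6 to 91.7%) and 43 shared domains (19.1%, 14.2 to 24.9%). One HA-AbdA peak lay on 293 domains, 2 on 181, and 3 or more on 102. HA-AbdA peaks covered 18.3% of the length of unmarked, 31.0% of part-marked and 4.16% of shared domains, against 24.2% of the length of all Ser2P peaks on the arms and 10.0% of the arms. By covered length, unmarked domains were thus below all Ser2P peaks. At the midpoint of the Ser2P peak, a reading that does not grow with width, HA-AbdA was present in 46.0% of Ser2P peaks under 1000 bp, in 27.2% of those of 1000 to under 3000 bp and in 16.5% of the domains, against 32.5% of all on the arms. So the share of peaks with HA-AbdA was slightly higher in wider Ser2P peaks by overlap, and lower by midpoint.

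HA-AbdA and Rpb3 of S2-AbdA cells went together on domains. Both were called on 528 domains (57.5%, against 47.5%) and neither on 244 (26.6%, against 25.3%). HA-AbdA without Rpb3 was seen on 48 (5.22%, against 10.8%), and Rpb3 without HA-AbdA on 99 (10.8%, against 16.5%). The 576 domains with HA-AbdA had a median of 12.1% of their length under S2 Ser2P peaks, and the 343 without it 97.3%. These medians hide both ends of the scale. Unmarked domains made up 40.6% of those with HA-AbdA and 35.6% of those without it, and shared domains 7.47% and 53.1%. Any S2 Ser2P peak lay on 59.4% of domains with HA-AbdA and on 64.4% of those without it. Within the unmarked class alone, domains with and without HA-AbdA had nearly the same median width (4268 and 4330.5 bp) and median score (3.88 and 3.98). They differed in other peaks of S2-AbdA cells: M1BP overlapped 74.4% of the 234 with and 27.9% of the 122 without, and Rpb3 overlapped 90.6% and 56.6%.

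The HA-AbdA peaks on domains were 1012 of the 10312 on the arms (9.81%). They overlapped a Rpb3 peak of S2-AbdA cells in 81.4% of cases, against 45.6% of all HA-AbdA peaks on the arms, and a M1BP peak in 55.0%, against 29.4%. A GAF peak of S2-AbdA cells met 43.4% of them, against 42.5%, which is no more than the background. A dRing peak met 25.9% (against 17.9%) and an E(z) peak 28.8% (against 20.7%). The median HA-AbdA score was 43.1 on domains and 35.9 elsewhere, and the median width 963.5 and 828.5 bp. These HA-AbdA peaks were somewhat wider, which by itself raises their overlap with any list.

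By overlap of 1 bp or more, M1BP was called on more domains than any other factor in both lines. It overlapped 682 domains in S2 cells (74.2%, 71.3 to 77.0%), against 48.0% of all Ser2P peaks on the arms, and 647 in S2-AbdA cells (70.4%, 67.3 to 73.3%), against 43.4%. With overlap of 50% of the shorter region, Rpb3 was ahead of M1BP. The shares were then 68.0% against 67.4% in S2 cells and 67.6% against 63.2% in S2-AbdA cells. By midpoint the domains did not exceed the narrowest Ser2P peaks: 17.7% had M1BP of S2-AbdA cells there, against 20.3% of those under 1000 bp and 16.6% of all on the arms. M1BP of S2-AbdA cells overlapped 58.4% of unmarked, 76.3% of part-marked and 80.4% of shared domains. The shared domains differed in how much was covered, 48.3% of their length, against 8.11% in unmarked and 15.1% in part-marked domains. M1BP was called in both lines on 617 domains (67.1%, against 40.4%), in S2 cells only on 65 (7.07%, against 7.61%) and in S2-AbdA cells only on 30 (3.26%, against 3.03%). On 207 domains (22.5%, against 49.0%) neither line had it.

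GAF was called in only 1 of the lines on more domains than any other factor, and in opposite directions by class. Over all domains GAF overlapped 420 in S2 cells (45.7%, 42.4 to 49.0%, against 38.8% of all Ser2P peaks on the arms) and 397 in S2-AbdA cells (43.2%, 40.0 to 46.5%, against 45.1%). Without the shared domains the order of the lines was reversed, at 37.3% in S2 and 52.4% in S2-AbdA cells. At the midpoint GAF was rarer in domains than in all Ser2P peaks on the arms, at 9.14% against 23.2% in S2 cells and 8.60% against 27.6% in S2-AbdA cells. The GAF lists differ in length, with 5407 peaks on the arms in S2 and 9472 in S2-AbdA cells. Among unmarked domains, 67 (18.8%) had GAF in S2-AbdA cells only and 8 (2.25%) in S2 cells only, and among part-marked domains the counts were 68 (20.1%) and 22 (6.51%). Among shared domains, 8 (3.56%) had GAF in S2-AbdA cells only and 136 (60.4%) in S2 cells only. Over all domains these sums were 143 (15.6%, against 16.0% of all Ser2P peaks on the arms) and 166 (18.1%, against 9.70%), so the S2-AbdA-only shares of unmarked and part-marked domains were near that of all Ser2P peaks. Both lines had GAF on 254 domains (27.6%, against 29.1%) and neither on 356 (38.7%, against 45.2%). The S2-AbdA samples of GAF and HA carry input code C, the other S2-AbdA antibodies code D and the S2 samples of these antibodies code B, so line and input code cannot be told apart.

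The combination of HA-AbdA with both promoter factors was most frequent in part-marked domains. HA-AbdA, GAF and M1BP of S2-AbdA cells were all called on 270 domains (29.4%, against 17.1% of all Ser2P peaks on the arms). These were 174 part-marked (51.5% of that class), 76 unmarked (21.3%) and 20 shared domains (8.89%). HA-AbdA with M1BP but without GAF lay on 177 domains (19.3%, against 14.1%), and 98 of these were unmarked. HA-AbdA with GAF but without M1BP lay on 87 (9.47%, against 17.8%), and HA-AbdA without either on 42 (4.57%, against 9.29%). M1BP of S2-AbdA cells thus lay on 77.6% of domains with HA-AbdA, against 58.3% of those without it and 70.4% of all domains. Among shared domains with and without HA-AbdA it lay on 79.1% and 80.8%.

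The Polycomb proteins dRing and E(z) were concentrated on shared domains. dRing overlapped 359 domains in S2 cells (39.1%, 35.9 to 42.3%, against 23.4%) and 459 in S2-AbdA cells (49.9%, 46.7 to 53.2%, against 36.5%). E(z) overlapped 515 in S2 cells (56.0%, 52.8 to 59.3%, against 41.4%) and 476 in S2-AbdA cells (51.8%, 48.5 to 55.1%, against 37.0%). At the midpoint the domains were closer to all Ser2P peaks on the arms: dRing lay there in 13.5% against 11.7% in S2 and 14.8% against 18.2% in S2-AbdA cells, and E(z) in 23.2% against 21.2% and 21.4% against 19.5%. Ser2P peaks under 1000 bp had higher midpoint shares, 15.3% and 28.9% for dRing and 29.8% and 27.0% for E(z). In S2-AbdA cells dRing was called on 21.9% of unmarked, 51.2% of part-marked and 92.4% of shared domains, and E(z) on 23.9%, 53.0% and 94.2%. E(z) covered at least 50% of the length in both lines in 182 shared domains, 2 part-marked domains and 1 unmarked domain. Both lines had E(z) on 453 domains (49.3%, against 33.2%) and neither on 381 (41.5%, against 54.9%). Both had dRing on 299 (32.5%, against 17.2%) and neither on 400 (43.5%, against 57.3%), and E(z) and dRing together marked 280 domains in both lines (30.5%, against 14.2%), 185 of them shared. The remaining domains had calls in 1 line. dRing was called in S2-AbdA cells only on 160 domains (17.4%, against 19.3%) and in S2 cells only on 60 (6.53%, against 6.26%), both near the background. E(z) differed less between lines, with 23 domains in S2-AbdA cells only (2.50%, against 3.72%) and 62 in S2 cells only (6.75%, against 8.16%).

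The lists that were high on shared domains are also those with many peaks outside the arms. The share of peaks outside the arms was 43.1% in the Ser2P list of S2-AbdA cells and 61.2% in that of S2 cells. It was 20.1 to 39.6% in the lists of M1BP, dRing and E(z) of both lines and GAF of S2 cells. In the lists of HA-AbdA, Rpb3 of both lines and GAF of S2-AbdA cells, which were low on shared domains, it was 0.386 to 0.629%. The part of this difference between the lists in the results on shared domains was not tested.

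**Figure D3:**
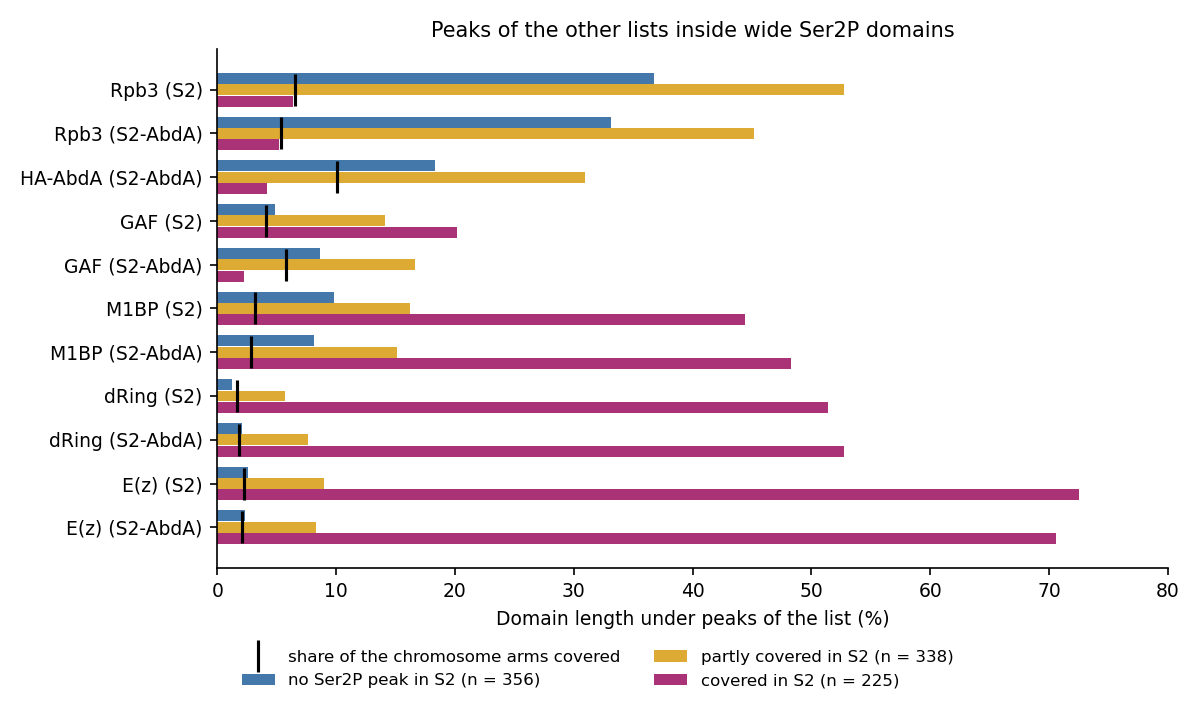
Share of the summed domain length under the peaks of each list, in the 3 classes (none: unmarked; partly: part-marked; covered: shared); black ticks give the share of the arms under the same list. Rpb3, HA-AbdA and GAF of S2-AbdA cells cover least of the shared domains, where M1BP, dRing and E(z) of both lines cover 44.4 to 72.5%.

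At the extremes, 103 domains overlapped a peak of all 6 other S2-AbdA lists (11.2%, against 5.32% of all Ser2P peaks on the arms), and 75 of them were part-marked. No peak of these lists overlapped 41 domains (4.46%, against 14.1%), and 37 of them were unmarked. These 37 had a median width of 5250 bp and a median score of 3.72, against 4294 bp and 3.90 for all unmarked domains.

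**Figure D4:**
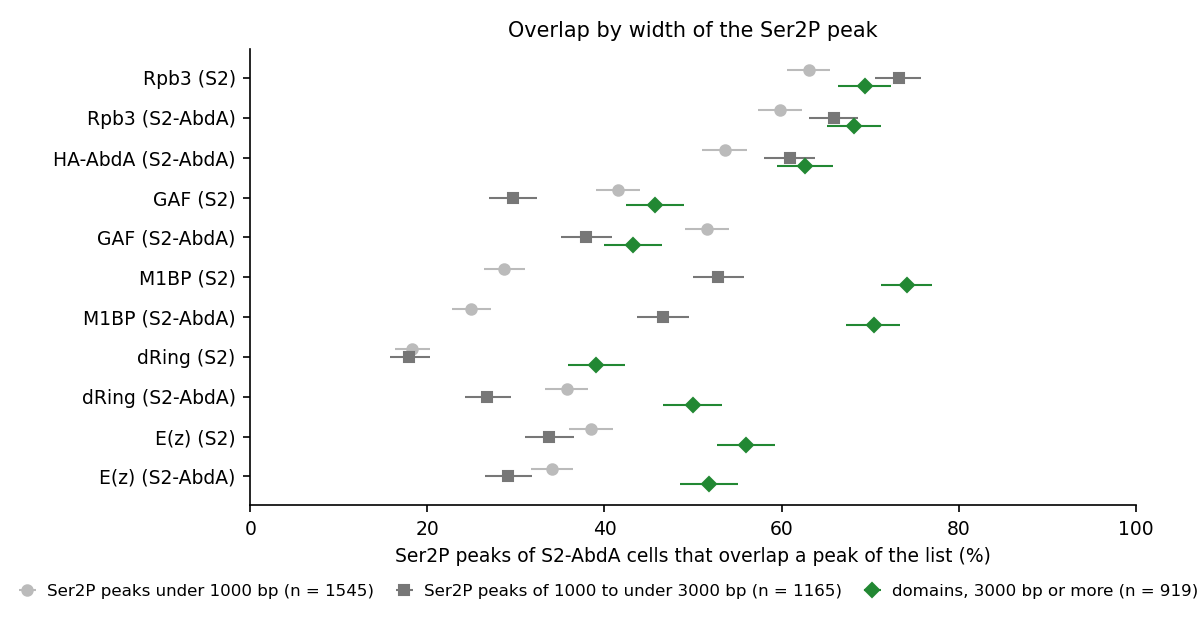
Share of Ser2P peaks of S2-AbdA cells that overlap a peak of each list, for peaks under 1000 bp, of 1000 to under 3000 bp, and for the domains; bars are exact 95% intervals that cover counting error only. By overlap, which by itself grows with width, M1BP rises from 28.7 to 52.9 to 74.2% in S2 cells, whereas Rpb3 of S2 cells is at 63.1, 73.2 and 69.4%. At the midpoint of the Ser2P peak, M1BP of S2 cells is at 23.0, 12.4 and 19.4%.

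Inside the domains, the peak centres of most factors lay towards the ends. By covered length over all domains this held for HA-AbdA, M1BP and GAF, while Rpb3, dRing and E(z) were nearly even. Positions were read from the centres of peaks, and the outer parts are the 20% of the length at each end, 40% together if centres were spread evenly. Intervals here are over centres, and the same domain can hold several, so they may be too narrow. Of the HA-AbdA centres 51.7% (48.2 to 55.2%) lay there, of the M1BP centres 51.8% in S2 and 51.5% in S2-AbdA cells, and of the GAF centres 61.6% and 51.3%. M1BP was most terminal in unmarked domains, where 66.4% (59.9 to 72.4%) of its centres in S2-AbdA cells were in the outer parts, against 50.7% in part-marked and 47.0% in shared domains. GAF of S2 cells was most terminal in shared domains, at 71.3% (65.9 to 76.3%) of 307 centres. For dRing the share was 49.1% in S2 and 49.7% in S2-AbdA cells, and for E(z) 49.8% and 49.2%. Rpb3 was closer to an even spread, at 46.0% in S2 and 45.5% in S2-AbdA cells. By covered length E(z) was nearly even, with 21.9% of the 20% at each end and 22.2% of the middle 20% in S2 cells. In S2-AbdA cells these were 20.6% and 21.0%. For dRing they were 14.8% and 14.6% in S2 and 16.2% and 15.9% in S2-AbdA cells. For Rpb3 they were 35.6% and 35.7%, and 30.9% and 31.3%. HA-AbdA covered 23.7% and 16.6% of the same parts, M1BP of S2-AbdA cells 23.6% and 18.4%, and GAF of S2-AbdA cells 12.4% and 8.74%. Ser2P peaks of S2 cells had 27.2% of their centres in the outer parts overall. In part-marked domains it was 40.7% (35.9 to 45.7%), near the 40% of evenly spread centres. By covered length these peaks were not even there, with 33.6% of the 20% at each end and 45.2% of the middle 20%. In shared domains 1.39% of the centres were in the outer parts, where covering 90% or more of the length places the centre near the middle.

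To give the domains a direction without gene annotation, 621 of them were turned so that the end nearer to the highest-scoring Rpb3 peak of S2-AbdA cells comes first. That peak had its centre in the outer parts of 304 domains (49.0%), at a median of 995.5 bp from the nearer end. The Rpb3 profile of S2-AbdA cells follows from this choice and is not a result. Lists whose peaks lie on Rpb3 peaks are drawn to the first end by the same choice. Of the HA-AbdA peaks on domains, 81.4% overlapped a Rpb3 peak of S2-AbdA cells. The profiles below are thus descriptions, and the part of the turning in them was not tested. HA-AbdA was asymmetric along the same direction: in unmarked domains its peaks covered 35.4% of the first 20% of the length, 16.6% of the middle 20% and 16.8% of the last 20%. In part-marked domains these were 46.6%, 29.4% and 30.7%. M1BP of S2-AbdA cells covered 22.5%, 5.39% and 9.07% of the same parts of unmarked domains, a profile with a high start, a low middle and a small rise at the end. GAF of S2-AbdA cells covered 16.9%, 7.96% and 7.21% of unmarked domains and 28.1%, 16.7% and 14.4% of part-marked ones. In S2 cells GAF covered 8.55% of the first part of unmarked domains.

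The stretch under Ser2P peaks in S2 cells lay towards the Rpb3 end of part-marked domains. It covered 42.4% of the first 20%, 45.0% of the middle 20% and 24.1% of the last 20% of the length. The centre of the S2 stretch was in the part nearer the highest-scoring Rpb3 peak in 201 of 310 such domains (64.8%) and in the part farther from it in 109. The length that was under Ser2P peaks in S2-AbdA cells only was thus larger at the end away from Rpb3. Beyond the domain, S2 Ser2P peaks covered 2.75% of the 250 bp after the last end and 6.15% of the 250 bp before the first.

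**Figure D5:**
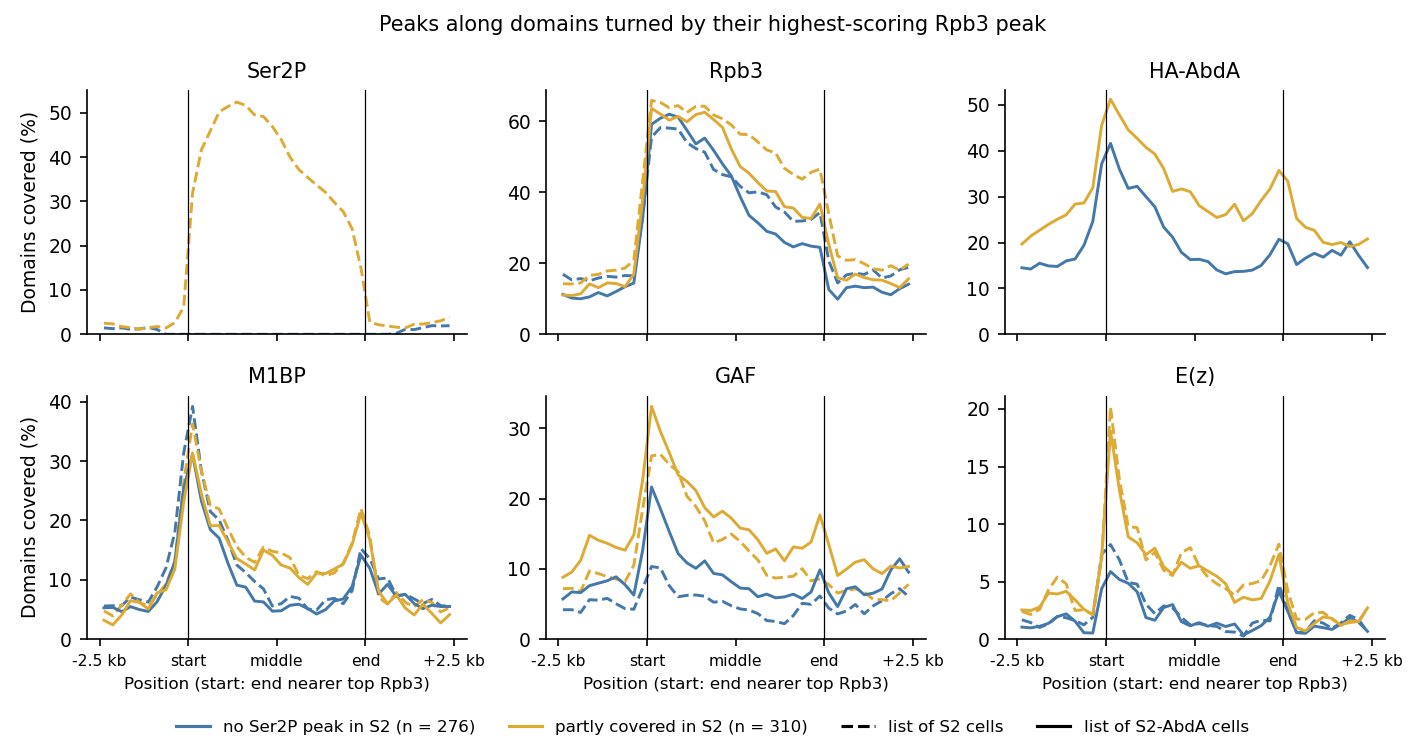
Percentage of domains covered by peaks of each list at each position, with the end nearer the highest-scoring Rpb3 peak of S2-AbdA cells on the left: 10 bins of 250 bp before the domain, 20 bins of its length, 10 bins after it. Blue lines are unmarked and yellow lines part-marked domains, dashed for lists of S2 cells and solid for lists of S2-AbdA cells. HA-AbdA, M1BP, GAF and E(z) peak at the left end, and S2 Ser2P in part-marked domains is higher on the left than on the right. Lists whose peaks lie on Rpb3 peaks are drawn to the left end by the turning itself.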

How the data were processed

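ChIP-seq peak lists, 13 in all, were used as deposited. The submitters' processing notes name BWA 0.7.12, MACS2 and build dm3, and say neither with which settings peaks were called nor how replicates were combined. Positions in bp and a score of unstated unit per peak are the authors' deposited values. The 33 samples were grouped by line and antibody. The HA control and 6 inputs were not analysed here. Every column used was mapped (0 left out).

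Overlap meant 1 bp or more. Shares, covered length and centre positions were computed with Python 3.11.15, pandas 2.3.3, numpy 2.4.6 and scipy 1.17.1, plots with matplotlib 3.10.9. The overlap code was tested on simulated data, and 87096 values were compared with bedtools 2.31.1, of which 0 differed. Starts are 1-based. The build was checked on the largest 3R end, 27898841, against 32079331 in Release 6, so no gene or sequence was assigned.

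Named domains were the 10 widest, the 5 highest in score, the 5 widest without S2 Ser2P, the 5 with most HA-AbdA centres, the 5 widest without HA-AbdA, the 5 widest with dRing and E(z), and 3 on each side of the limit. The domains, lists and rules were chosen with earlier results of these data known, and the 3 classes after seeing the S2 coverage. Alternatives changed the overlap rule, the score limit, the width limit, the joining of peaks and which domains were counted.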

Additional observations from a re-analysis of the deposited data

How the results depend on the processing

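No paired analysis was possible because each antibody and line has 1 deposited list for both replicates, and for the same reason no replicate could be left out. Depth is unknown, so a missing peak says only that none was called. In all, 25 results were recomputed under 8 alternatives; 114 of the 200 values stayed within the interval of the reported value and 86 moved. Joining Ser2P peaks across gaps of up to 1000 bp (933 domains) moved none. Where values moved, fewer or other peaks or domains were counted by construction; beyond that the cause was not tested.

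When an overlap had to reach 50% of the shorter region, the share of domains with HA-AbdA was 54.8%, with M1BP 67.4% in S2 and 63.2% in S2-AbdA cells, and with GAF of S2-AbdA cells 39.0%. With the peak centre inside the domain these were 54.7%, 67.4%, 63.2% and 39.0%. Under both rules Rpb3, at 68.0% in S2 and 67.6% in S2-AbdA cells, lay on more domains than M1BP.

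With the higher-scoring 50% of each other list, an S2 Ser2P peak lay on 36.1% of domains, the median covered share was 0% and 17.1% of its centres were in the outer parts. HA-AbdA lay on 46.7%. In S2 and S2-AbdA cells, respectively, Rpb3 lay on 52.2% and 50.1%, M1BP on 51.3% and 50.7%, GAF on 28.2% and 27.4%, dRing on 24.9% and 32.2% and E(z) on 38.5% and 35.1%. The outer parts then held 48.5% of the Rpb3 centres of S2-AbdA cells, 60.8% and 63.9% of the M1BP centres of S2 and S2-AbdA cells, and 67.8% of the GAF centres of S2 cells.

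At a width of 2000 bp or more (1390 domains), S2 Ser2P lay on 53.7% with a median cover of 8.82%. M1BP lay on 68.8% in S2 and 63.5% in S2-AbdA cells, GAF of S2 cells on 39.5%, dRing on 31.9% and 42.3%, and E(z) on 49.2% and 44.4%. At 5000 bp or more (461 domains), S2 Ser2P lay on 73.1% with a median cover of 46.2%, HA-AbdA on 55.5%, Rpb3 on 60.3% and 59.2%, M1BP on 79.6% and 77.4%, GAF of S2 cells on 58.4%, dRing on 51.6% and 64.4%, and E(z) on 68.3% and 64.6%. The outer parts then held 49.0% and 48.0% of M1BP centres.

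The remaining alternatives were chosen after seeing the data. In the 627 domains with a Rpb3 peak of S2-AbdA cells, S2 Ser2P lay on 55.2% with a median cover of 7.93%, HA-AbdA on 84.2%, Rpb3 on 95.5% in S2 and, by construction, 100% in S2-AbdA cells. M1BP lay on 78.3% and 73.7%, GAF on 42.3% and 58.7%, dRing on 27.4% and 40.8%, and E(z) on 48.3% and 42.9%. The outer parts then held 36.6% of S2 Ser2P, 55.5% of S2-AbdA M1BP, 51.8% of S2 GAF, 54.8% of S2 dRing, and 58.0% of S2 and 54.8% of S2-AbdA E(z) centres. Without the shared domains (694 left), S2 Ser2P lay on 48.7% with a median cover of 0%, HA-AbdA on 76.8%, Rpb3 on 86.3% and 85.3%, M1BP of S2-AbdA cells on 67.1%, GAF on 37.3% and 52.4%, dRing on 24.2% and 36.2%, and E(z) on 43.5% and 38.0%. The outer parts then held 40.7% of S2 Ser2P, 56.2% of S2-AbdA M1BP, 53.0% of S2 GAF, 52.6% of S2 dRing, and 56.5% of S2 and 53.5% of S2-AbdA E(z) centres.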
